A study of Mus musculus with 8 samples.

Results

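Haemoglobin and neutrophil transcripts were followed through 8 RNA-seq libraries of mouse nucleus accumbens, a reward-related region of the ventral striatum. The genes were 7 of the 22337 rows of the deposited table, found by GENCODE symbols matched to its Ensembl identifiers: 5 red cell genes (Hba-a1, Hba-a2, Hbb-bs, Hbb-bt and Alas2) and 2 neutrophil genes (S100a8 and S100a9). Their choice did not use the morphine comparison, but it was made with earlier results of these data known. The libraries came from male C57BL/6 mice, 4 given morphine and 4 given saline, and the series asks what chronic morphine exposure does to the transcriptome of this region. Morphine is an agonist of the mu opioid receptor. No genotype, transgene or other agent is labelled in either group, and the labels give no dose, schedule or age and do not state whether the brain was perfused to clear blood. Whether each library came from its own mouse is not labelled, so p-values here reflect only library-to-library spread, which may be technical.

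Haemoglobin is a tetramer of α and β globin chains, each holding a haem group. In adult mice the α chains are made from Hba-a1 and Hba-a2 and the β chains, in C57BL/6, from Hbb-bs and Hbb-bt. Alas2 encodes the erythroid form of the first enzyme of haem synthesis. Mature red cells have no nucleus, but young circulating red cells (reticulocytes) still hold globin mRNA, which makes globin transcripts a common sign of blood in a tissue sample, although globin mRNA has also been found in some neurons and glia. S100a8 and S100a9 encode calcium-binding proteins that pair as calprotectin and are among the most abundant proteins of the neutrophil cytoplasm.

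The promoters are shown as background. Whether they bear on how these genes varied from library to library was not tested. RefSeq promoter sequences (GRCm38.p6) matched all 7 genes. The 240 bases before the RefSeq start are printed 5′ to 3′ for 6 of them. In the globin genes capitals mark GATAAG (bound by GATA factors), CCNCNCCC (CACCC box), CCAAT and TATAA. In S100a8 and S100a9 capitals mark TTGCNNAA (C/EBP), GAGGAAG (PU.1), CCAAT and TATAA. Both strands were searched, and adjacent or overlapping matches run together.
Hba-a1 (chr11:32283432-32283671, plus strand): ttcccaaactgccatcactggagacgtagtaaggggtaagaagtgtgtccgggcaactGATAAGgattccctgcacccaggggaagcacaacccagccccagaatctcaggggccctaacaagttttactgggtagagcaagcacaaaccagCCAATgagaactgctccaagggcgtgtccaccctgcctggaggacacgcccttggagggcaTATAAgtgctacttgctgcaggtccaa
Hba-a2 (chr11:32296252-32296491, plus strand): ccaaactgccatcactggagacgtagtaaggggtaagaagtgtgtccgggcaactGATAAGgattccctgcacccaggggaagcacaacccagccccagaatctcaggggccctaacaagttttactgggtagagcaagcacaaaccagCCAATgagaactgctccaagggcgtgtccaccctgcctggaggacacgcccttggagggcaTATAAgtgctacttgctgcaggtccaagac
Hbb-bs (chr7:103827929-103828168, minus strand): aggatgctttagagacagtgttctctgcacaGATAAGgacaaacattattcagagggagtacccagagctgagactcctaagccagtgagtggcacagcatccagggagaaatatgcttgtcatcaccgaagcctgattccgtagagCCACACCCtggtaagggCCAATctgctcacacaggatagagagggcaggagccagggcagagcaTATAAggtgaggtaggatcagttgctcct
Hbb-bt (chr7:103813924-103814163, minus strand): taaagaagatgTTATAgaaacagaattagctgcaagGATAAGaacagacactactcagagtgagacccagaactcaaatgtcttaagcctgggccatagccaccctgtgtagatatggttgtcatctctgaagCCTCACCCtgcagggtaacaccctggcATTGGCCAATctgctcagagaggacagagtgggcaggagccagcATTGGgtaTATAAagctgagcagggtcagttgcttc
S100a8 (chr3:90668831-90669070, plus strand): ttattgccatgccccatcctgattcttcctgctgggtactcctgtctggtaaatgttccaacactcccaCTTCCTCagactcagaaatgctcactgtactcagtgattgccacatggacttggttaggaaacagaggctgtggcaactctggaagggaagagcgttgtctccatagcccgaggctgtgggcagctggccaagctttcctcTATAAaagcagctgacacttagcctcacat
S100a9 (chr3:90695722-90695961, minus strand): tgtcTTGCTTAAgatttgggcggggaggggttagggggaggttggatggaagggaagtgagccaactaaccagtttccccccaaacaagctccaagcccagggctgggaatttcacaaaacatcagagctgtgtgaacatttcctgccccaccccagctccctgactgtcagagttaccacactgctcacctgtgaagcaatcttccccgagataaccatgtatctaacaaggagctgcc

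In the 250 bases before the start, the Hba-a1 and Hba-a2 promoters were 97.6% identical after alignment, against 69.3% for Hbb-bs and Hbb-bt. GATAAG stood in all 4 globin promoters, and 6.55% of 32851 mouse promoters of that length hold it. TATAA stood in all 4 and in 22.8% of all promoters. CCAAT stood in all 4 and in 33.8% of all promoters, while CCNCNCCC was found in both β globin promoters and in 45.9% of all. The α globin pair are near copies, so these are not 4 separate observations. S100a8 held TATAA and GAGGAAG, and 10.6% of promoters hold GAGGAAG, that of Alas2 among them. Alas2 also held TATAA and 4 overlapping or nearby matches to CCNCNCCC. S100a9 held TTGCNNAA, found in 9.56% of promoters and also in Hbb-bs, and CCNCNCCC, which is not capitalised there. GATAAG was in neither of these promoters nor in that of Alas2. A match describes these letters only.

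Values are FPKM, fragment counts scaled by transcript length and by library depth. This scaling does not correct for differences in composition between libraries, such as the share of mitochondrial FPKM given below. Each log2 change is the morphine mean minus the saline mean of log2(FPKM + 1), a scale on which low genes appear to change less than they do. A gene was tested where it reached an FPKM of 1 in at least 4 libraries. This left 12536 genes, of which 316 passed limma's test (Benjamini-Hochberg adjusted p under 0.05), or 2.52%. FPKM summed to between 480004 and 540104 per library. The low values of short genes fell on steps of whole fragments, from which depth was estimated at 12300000 to 19300000 mapped fragments per library. Morphine replicate 1 had the largest estimate and saline replicate 4 the smallest.

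S100a8 and S100a9 were lower in every morphine library than in any saline library, whereas the globin genes varied several-fold within each group and their groups overlapped. Of the 6 members that passed the filter on low values, 2 passed the test, both lower with morphine, where 1.48% of all tested genes were called lower. The same 2 members had every morphine value below every saline value, as did 6.1% of all tested genes. S100a8 and S100a9 reached an FPKM of 1 in all 4 saline libraries but only in replicates 1 and 2 of the morphine libraries. The saline libraries alone thus carried them through the filter. All 7 members, Alas2 included, had a negative log2 change, as did 48% of all tested genes. Alas2 was not tested by limma, since it reached an FPKM of 1 in 1 library. The median log2 change of all tested genes was 0.01.

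**Figure D1:**
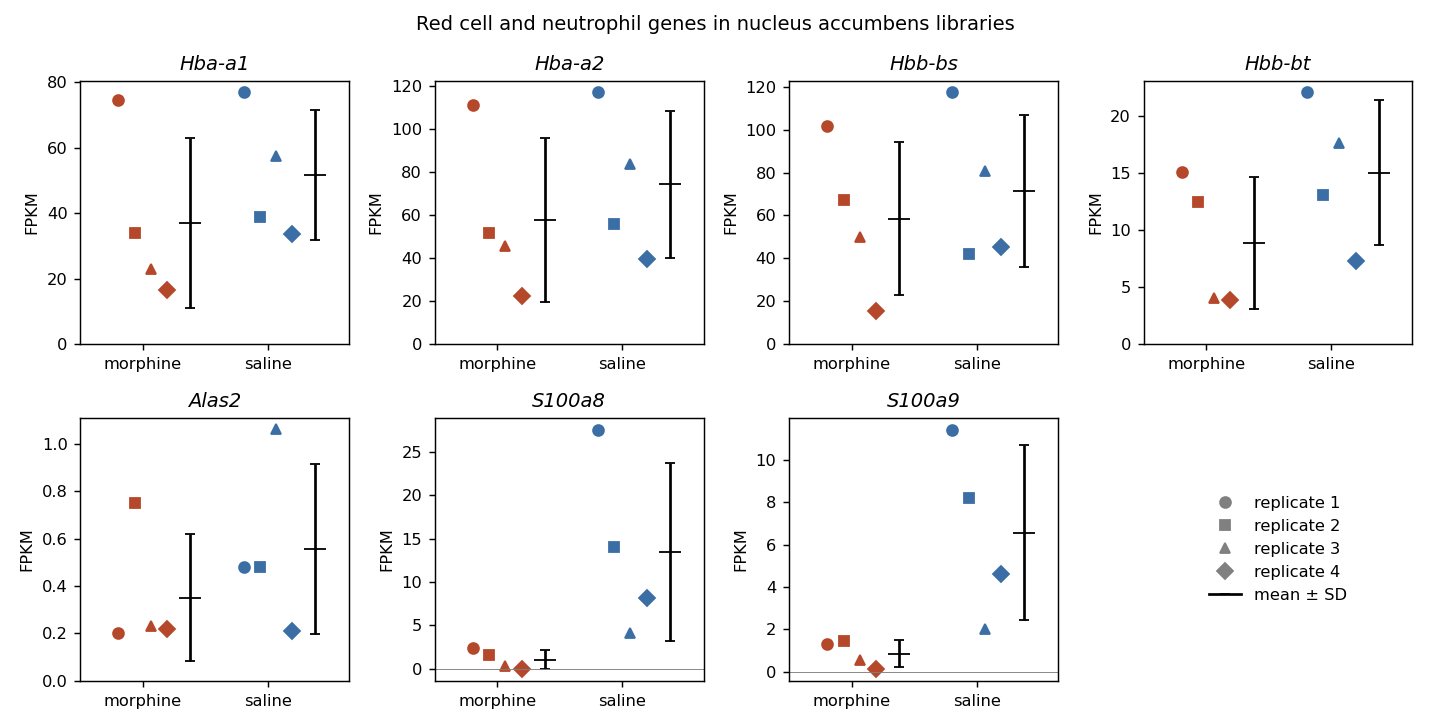
FPKM of each of the 7 genes (y axis, linear, a separate scale per gene) in the 4 morphine and 4 saline libraries; symbols give the replicate, and bars the mean ± SD of 4 libraries. S100a8 and S100a9 do not overlap between the groups, while the 4 globin genes and Alas2 do.

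S100a8 (ENSMUSG00000056054, chromosome 3, 90668978 to 90670035, plus strand, GRCm38) had 2.34, 1.52, 0.30 and 0 FPKM in morphine replicates 1 to 4, against 27.57, 14, 4.08 and 8.19 FPKM in saline replicates 1 to 4. All 4 morphine values lay below the lowest saline value, that of saline replicate 3. The groups averaged 1.04 ± 1.09 FPKM with morphine and 13.5 ± 10.2 FPKM with saline (SD, n = 4 each), and the log2 change was −2.71 ± 0.52 (SE; limma adjusted p = 0.0319). By size of the fall it ranked 7 of the 12536 tested genes. An exact two-sided permutation test of this gene alone gave an unadjusted p = 0.0286, the smallest that 70 assignments of 8 libraries can give. Any gene whose groups do not overlap gets this p, and 12.7% of all tested genes had such groups.

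The depth behind these values was small in the morphine libraries. By the estimated depth, and taking the longest coding transcript of 486 bases, S100a8 rested on about 22, 10, 2 and 0 fragments in morphine replicates 1 to 4, against about 204, 98, 29 and 49 in saline replicates 1 to 4. The Poisson 95% interval of the count of 29 in saline replicate 3 was 19.4 to 41.6, which overlaps that of the count of 22 in morphine replicate 1, 13.8 to 33.3. These counts are not scaled to depth, estimated at 14600000 fragments in saline replicate 3 and 19300000 in morphine replicate 1. Their overlap is thus not one on the FPKM scale. For morphine replicate 4, listed at 0, the same interval ran up to 3.69 fragments, where 3 fragments would be 0.435 FPKM. These limits cover counting error only, since PCR duplicates were not identified.

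S100a9 (ENSMUSG00000056071, chromosome 3, 90692632 to 90695721, minus strand) had 1.31, 1.45, 0.56 and 0.14 FPKM in morphine replicates 1 to 4, against 11.41, 8.21, 2.00 and 4.60 FPKM in saline replicates 1 to 4. The groups again did not overlap, and saline replicate 3 was again the lowest saline library. The groups averaged 0.865 ± 0.622 FPKM with morphine and 6.56 ± 4.12 FPKM with saline (SD, n = 4 each), and the log2 change was −1.89 ± 0.41 (SE; limma adjusted p = 0.0449). The exact permutation p was 0.0286, the smallest possible, which again follows from the groups not overlapping. The estimated fragments were 13, 10, 4 and 1 in the morphine libraries, against 90, 62, 15 and 29 in the saline libraries. Another row that the deposited table labels S100a9 is Gm5849 in GENCODE and was listed at 0 in all 8 libraries.

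Both calls were lost with no filter on low values (adjusted p = 0.0819 for S100a8 and 0.0989 for S100a9), and that of S100a9 also with quantile normalization (0.0558). Both depended on single libraries. S100a8 missed the threshold without saline replicate 1 or 2 or without morphine replicate 2, 3 or 4 (adjusted p between 0.0599 and 0.111), and S100a9 also without morphine replicate 1 (between 0.0708 and 0.136). The log2 change stayed between −3.12 and −2.29 for S100a8 and between −2.27 and −1.59 for S100a9 over the 8 such fits. Without saline replicate 3 both passed, with changes of −3.12 and −2.27 (adjusted p = 0.0105 and 0.00964). The number of genes called in all was 0 without morphine replicate 3 or 4 or saline replicate 2 (1953, 2136 and 2005 at an unadjusted p under 0.05).

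**Figure D2:**
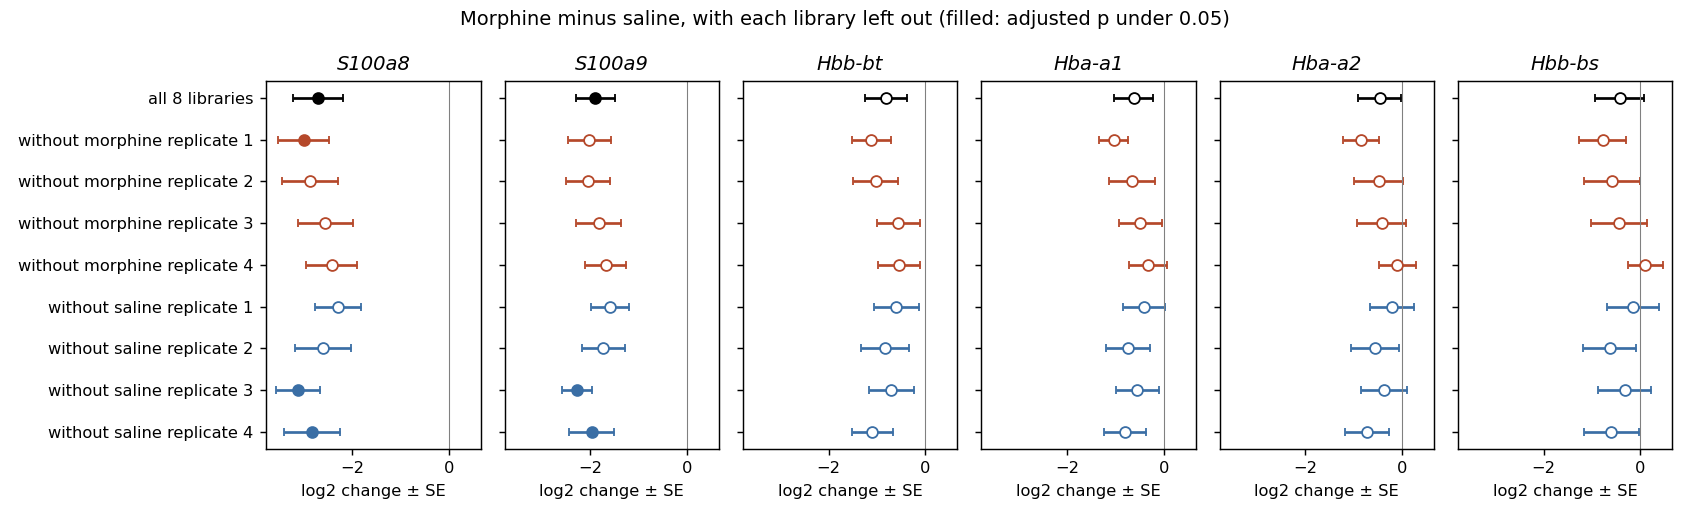
Log2 change of FPKM + 1, morphine minus saline, with its SE (x axis) for 6 genes with all 8 libraries (black) and with each morphine (red) or saline (blue) library left out; filled points passed an adjusted p of 0.05. S100a8 and S100a9 stay negative and lose the call in 5 and 6 of the 8 fits, and no globin gene passes in any.

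The α globin genes were among the more abundant transcripts of the table. Hba-a2 (ENSMUSG00000069917, chromosome 11, 32296489 to 32297298, plus strand) had a mean above that of 93.9% of all listed genes. It had 111.47, 51.79, 45.46 and 22.40 FPKM in morphine replicates 1 to 4, against 117.51, 56.03, 84.03 and 39.77 FPKM in saline replicates 1 to 4. Morphine replicate 1 lay beside the highest saline library and morphine replicate 4 below every saline library. The groups averaged 57.8 ± 37.96 FPKM with morphine and 74.3 ± 34.1 FPKM with saline (SD, n = 4 each), with a log2 change of −0.46 ± 0.44 (SE; limma adjusted p = 0.602; 95% interval −1.44 to 0.51).

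Hba-a1 (ENSMUSG00000069919, chromosome 11, 32283511 to 32284465, plus strand) had 74.65, 33.97, 23.09 and 16.46 FPKM in morphine replicates 1 to 4, against 77.13, 38.82, 57.62 and 33.54 FPKM in saline replicates 1 to 4. The groups overlapped, with the same libraries highest and lowest as for Hba-a2. The log2 change was −0.63 ± 0.41 (SE; limma adjusted p = 0.427). The coding transcripts of the pair shared 86.9% of the 50-base windows of Hba-a2 and 67.5% of those of Hba-a1, so reads could be divided between them only in part. Hba-a1 took 33.7% to 42.4% of the summed α globin FPKM in the morphine libraries and 39.6% to 45.8% in the saline libraries.

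Of the β globin genes, Hbb-bs was the larger and Hbb-bt the smaller in each library. Hbb-bs (ENSMUSG00000052305, chromosome 7, 103826534 to 103828096, minus strand) had 101.52, 67.32, 50.06 and 15.39 FPKM in morphine replicates 1 to 4, against 117.57, 42.02, 80.68 and 45.22 FPKM in saline replicates 1 to 4. Among the 16 pairs of one morphine and one saline library, the morphine value was the lower in 9. Its log2 change was −0.43 ± 0.51 (SE; limma adjusted p = 0.688), and 0.10 without morphine replicate 4.

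Hbb-bt (ENSMUSG00000073940, chromosome 7, 103812524 to 103813996, minus strand) had 15.08, 12.45, 4.07 and 3.86 FPKM in morphine replicates 1 to 4, against 22.12, 13.12, 17.62 and 7.31 FPKM in saline replicates 1 to 4. Of the globin genes it had the most negative log2 change, −0.81 ± 0.43 (SE; limma adjusted p = 0.324; 95% interval −1.77 to 0.15), and the morphine value was the lower in 13 of 16 pairs. The coding transcripts of Hbb-bs and Hbb-bt shared 57.5% and 58.3% of their 50-base windows. Hbb-bt took 7.52% to 20.1% of the summed β globin FPKM in the morphine libraries and 13.9% to 23.8% in the saline libraries. The deposited table gives both β genes the symbol Hbb-b1 and both α genes the symbol Hba, and the GENCODE symbols are used here.

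Alas2 (ENSMUSG00000025270, chromosome X, 150547375 to 150570638, plus strand) rested on an estimated 5 to 31 fragments per library. It had 0.20, 0.75, 0.23 and 0.22 FPKM in morphine replicates 1 to 4, against 0.48, 0.48, 1.06 and 0.21 FPKM in saline replicates 1 to 4. The difference in mean log2(FPKM + 1) was −0.20 (exact two-sided permutation p = 0.343). The groups overlapped, with saline replicate 3 and morphine replicate 2 the highest libraries.

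The α and β genes varied together although no 50-base window of Hba-a1 occurred in Hbb-bs. Summed haemoglobin FPKM of the 4 genes was 302.7, 165.5, 122.7 and 58.1 in morphine replicates 1 to 4, against 334.3, 150.0, 239.95 and 125.8 in saline replicates 1 to 4. This is 0.0117% to 0.0603% of all FPKM in the morphine libraries and 0.0257% to 0.0619% in the saline libraries. The ratio of α to β globin was 1.49 ± 0.414 with morphine and 1.49 ± 0.157 with saline (SD, n = 4 each), ranging from 1.08 in morphine replicate 2 to 2.02 in morphine replicate 4. As a description over 8 libraries that share a scaling, Pearson's r of log2 values lay between 0.81 and 0.97 for the 6 pairs of globin genes, was 0.99 for S100a8 with S100a9, and lay between 0.45 and 0.72 for the 8 pairs of a globin gene with S100a8 or S100a9. With each group's mean subtracted the ranges were 0.82 to 0.97 for the globin pairs, 0.96 for the S100 pair and 0.45 to 0.65 for the mixed pairs.

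Set against the haemoglobin of the same library, the S100a8 and S100a9 transcripts were also lower with morphine. Their summed FPKM per 100 FPKM of haemoglobin was 1.21, 1.79, 0.701 and 0.241 in morphine replicates 1 to 4, against 11.7, 14.8, 2.53 and 10.2 in saline replicates 1 to 4. The groups did not overlap, and saline replicate 3 lay closest to the morphine libraries. Morphine replicate 1 and saline replicate 1 had similar haemoglobin, 302.7 and 334.3 FPKM, but 3.65 and 38.98 FPKM of S100a8 and S100a9 together. With the mean log2 level of the haemoglobin genes added to the model as a covariate, which was decided on once the values were known, the log2 change was −2.26 ± 0.45 for S100a8 and −1.64 ± 0.41 for S100a9 (SE; limma adjusted p = 0.0816 and 0.133, with 0 genes called in all and 2027 at an unadjusted p under 0.05). In bulk tissue, fewer cells of a type and less RNA per cell cannot be told apart.

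**Figure D3:**
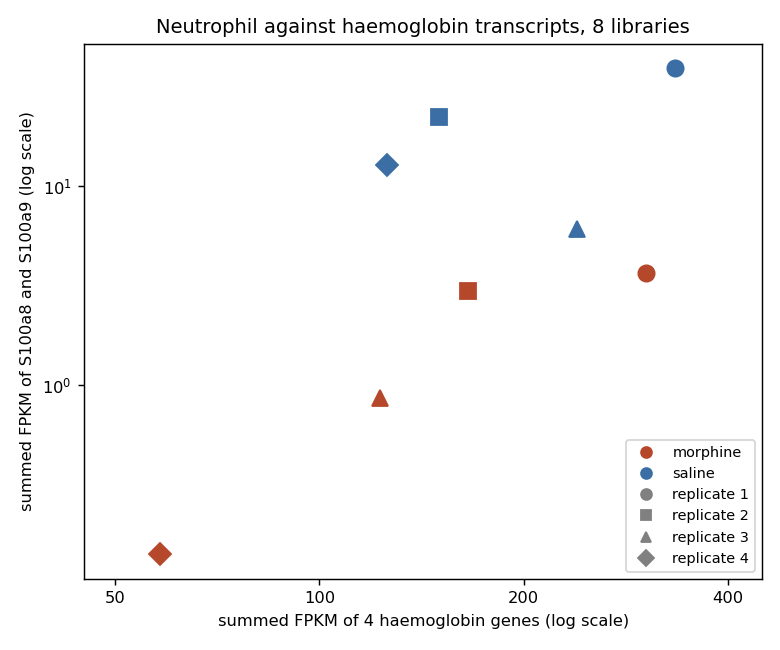
Summed FPKM of S100a8 and S100a9 (y axis, log scale) against summed FPKM of Hba-a1, Hba-a2, Hbb-bs and Hbb-bt (x axis, log scale), one point per library. Haemoglobin spans 58.1 to 302.7 FPKM in the morphine libraries and 125.8 to 334.3 in the saline libraries, while S100a8 and S100a9 span 0.14 to 3.65 with morphine and 6.08 to 38.98 with saline.

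**Figure D4:**
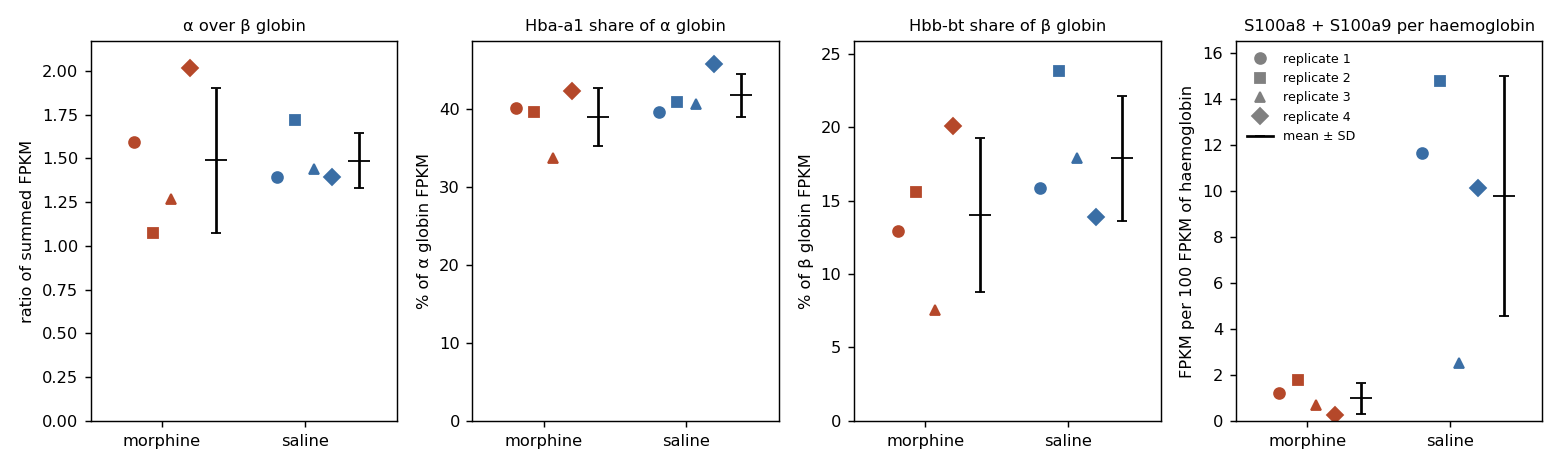
Composition of the transcripts per library: the ratio of α to β globin FPKM, the share of Hba-a1 in α globin, the share of Hbb-bt in β globin, and FPKM of S100a8 and S100a9 per 100 FPKM of haemoglobin; bars are the mean ± SD of 4 libraries. The first 3 panels overlap between groups, and the last runs from 0.241 to 1.79 with morphine and from 2.53 to 14.8 with saline.

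Other neutrophil genes were mostly too low to test. Of 38 listed neutrophil genes beside S100a8 and S100a9, 7 passed the filter. Of these 1 fell and none rose, where 1.48% of all tested genes were called lower. The median log2 change of the 7 was −0.52, and 23 of the 38 were under an FPKM of 1 in all 8 libraries. The gene that fell was Ngp, which encodes a granule protein of neutrophils, at 1.06, 0.36, 0 and 0.34 FPKM in morphine replicates 1 to 4, against 4.19, 7.16, 2.01 and 1.99 FPKM in saline replicates 1 to 4. Ngp passed the filter through its saline libraries, since only replicate 1 of the morphine libraries reached an FPKM of 1. Its log2 change was −1.67 ± 0.33 (SE; limma adjusted p = 0.0365). It missed the threshold without morphine replicate 2, 3 or 4 or saline replicate 1 or 2 (−1.66 to −1.37, adjusted p up to 0.123). Csf3r, the receptor for the growth factor of neutrophils, had a log2 change of −0.52 ± 0.16 (adjusted p = 0.114). Lyz2, a lysozyme gene that monocytes and microglia also express, had a change of −0.81 ± 0.26 (adjusted p = 0.116) and passed without saline replicate 4 (−1.06, adjusted p = 0.0254).

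The mean FPKM was lower with morphine in 30 of the 38 genes and higher in 8. Of the tested genes, Itgam, an integrin gene that microglia share, had a log2 change of 0.06 ± 0.14 (adjusted p = 0.847) and Prtn3, the proteinase 3 gene, one of −0.05 ± 0.21 (adjusted p = 0.928). Of genes below the filter, Lrg1 averaged 1.01 FPKM with morphine and 0.502 with saline, and Il1r2 averaged 0.468 FPKM with morphine and 0.202 with saline. The genes Camp, Ltf and Chil3, chosen after their values were seen and all with lower morphine means, are given by range. Camp, the cathelicidin gene, lay between 0 and 0.57 FPKM with morphine and between 0.43 and 3.30 with saline. Ltf, the lactoferrin gene, lay between 0 and 0.74 FPKM with morphine and between 0.65 and 1.52 with saline. Chil3, a chitinase-like gene, lay between 0 and 0.23 FPKM with morphine and between 0.18 and 1.94 with saline. In all 3 genes the ranges met, and an estimated 15, 47 and 11 fragments in the morphine libraries together stood against 77, 191 and 102 in the saline libraries. The defining neutrophil marker Ly6g was at 0 in 3 morphine and 2 saline libraries and at most 0.23 FPKM, in morphine replicate 3, and the chemokine receptor gene Cxcr2 reached at most 0.27 FPKM with morphine and 0.34 with saline.

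Red cell genes beyond the globins were mostly low. Of 34 listed genes 33 were in the table, 21 were under an FPKM of 1 in all libraries and 11 were tested. Of these 1 fell and none rose, where 1.48% of all tested genes were called lower, and the median change was −0.14. The mean FPKM was lower with morphine in 21 of the 33 genes and higher in 8. The gene that fell was Epb41, which encodes a membrane skeleton protein found in red cells and neurons. It averaged 2.81 ± 0.637 FPKM with morphine and 8.80 ± 3.87 FPKM with saline (SD, n = 4 each), a log2 change of −1.30 ± 0.25 (SE; limma adjusted p = 0.0350), and its log2 change lay between −1.51 and −1.06 over the 8 fits with a library left out, 3 of which passed. It missed the threshold without any 1 of the morphine libraries or saline replicate 2 (adjusted p up to 0.120). Slc4a1, the anion exchanger of the red cell membrane, was listed at 0 in all 4 morphine libraries and at 0.25, 0.06, 0.05 and 0.14 FPKM in saline replicates 1 to 4. The embryonic globin genes Hba-x and Hbb-bh1 were listed at 0 in all 8 libraries. The whole list summed to 840.0 to 906.9 FPKM with morphine and 654.2 to 755.0 with saline. Bnip3l, which clears mitochondria in maturing red cells and is made in many tissues, had a change of 0.34 ± 0.11 (adjusted p = 0.112).

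Genes of haem synthesis, haem breakdown and iron handling did not pass singly. Of 29 listed genes 28 were tested, none rose or fell (17 had a negative change, median −0.02). Alas1, the form of the enzyme made in tissues other than the red cell line, had a change of 0.15 ± 0.12 (limma adjusted p = 0.520), and Hmox1, which breaks haem down, one of −0.01 ± 0.15 (adjusted p = 0.976). The smallest p belonged to Abcb6, a porphyrin transporter gene (0.30 ± 0.10, adjusted p = 0.139), Flvcr1, a haem exporter gene (−0.39 ± 0.14, adjusted p = 0.170), and Slc25a38, which brings glycine into mitochondria for haem synthesis (0.24 ± 0.11, adjusted p = 0.230). In the globin family beyond the members 2 of 9 genes were tested and none passed. Cygb, the cytoglobin gene, had a change of −0.45 ± 0.15 (adjusted p = 0.133) and passed without saline replicate 4 (−0.57, adjusted p = 0.0471), and Ngb, the neuroglobin gene, had one of −0.22 ± 0.17 (adjusted p = 0.518). Hbq1a, the untested gene of this family with the highest mean, stayed at or below 0.67 FPKM.

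The relatives and receptors of S100a8 and S100a9 had smaller changes. Of 14 other genes with an S100 symbol 10 were tested and none passed, with 8 negative changes and a median of −0.40. S100a16 had 90.1 ± 5.64 FPKM with morphine and 124.4 ± 14.5 FPKM with saline (SD, n = 4 each), a log2 change of −0.46 ± 0.11 (SE; limma adjusted p = 0.0598). It passed with quantile normalization (−0.55, adjusted p = 0.0331), with mitochondrial genes removed (−0.50, adjusted p = 0.0382) and without saline replicate 4 (−0.54, adjusted p = 0.0297). S100a5 changed by 0.91 ± 0.25 (adjusted p = 0.0812) and S100a11 by −0.96 ± 0.27 (adjusted p = 0.0868), neither passing. Of 8 genes for receptors and their signalling partners 5 were tested and none passed (median −0.08). Those with the smallest p were Cd33 (−0.53 ± 0.19, adjusted p = 0.149), Myd88 (−0.11 ± 0.16, adjusted p = 0.749) and Bsg (−0.08 ± 0.14, adjusted p = 0.788). Tlr4, a receptor of calprotectin, lay between 0.33 and 0.76 FPKM with morphine and between 0.35 and 0.54 with saline. Ager, the other well-known receptor, lay between 0.04 and 0.18 FPKM with morphine and between 0.20 and 0.51 with saline. These ranges did not overlap, but Ager was too low to test. Groups did not overlap in 12.7% of all tested genes, and in 6.1% every morphine value was the lower.

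Most markers of other blood cells were too low to test. In the platelet list 1 of 16 genes was tested: Pf4, platelet factor 4, which macrophages at brain borders also express, averaged 1.02 ± 0.421 FPKM with morphine and 4.47 ± 2.90 FPKM with saline (SD, n = 4 each), a log2 change of −1.30 ± 0.34 (SE; limma adjusted p = 0.0720). Gp9 and Gp5, parts of a platelet receptor, stayed at or below 1.47 and 1.31 FPKM. Ppbp, a defining platelet gene, was at 0 in all 4 morphine libraries and at most 0.06 FPKM in saline. Of 23 lymphocyte and monocyte genes 2 were tested and none passed. Those were Cd4 and Ighm, an antibody heavy chain gene. Cd4 had a log2 change of −2.23 ± 0.55 (limma adjusted p = 0.0612). It lay at 0.07 to 0.62 FPKM with morphine, so it passed the filter through its saline libraries. There it was at 23.78 FPKM in saline replicate 3 and 2.08 to 4.26 in the remaining saline samples. Saline replicate 3 also had the highest striatal sum, given below. Which cells the Cd4 transcripts came from was not tested. Ighm lay at 6.39 to 14.61 FPKM with morphine and 8.66 to 20.49 with saline (−0.55 ± 0.32, limma adjusted p = 0.369). Trbc2, a T cell receptor gene, averaged 0.955 FPKM with morphine and 0.895 with saline, while the T cell gene Cd3e was at 0 in 7 libraries. Among border macrophage genes 2 of 9 were tested, Stab1 (−0.14 ± 0.17, adjusted p = 0.685) and Cbr2 (−0.02 ± 0.39, adjusted p = 0.984), and F13a1 averaged 0.557 FPKM with morphine and 1.45 with saline.

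Markers of vessels and neurons also differed between the groups. With the mean log2 level of the striatal list as a covariate, also added once the values were known, the log2 change was −4.15 ± 0.91 for S100a8 and −3.37 ± 0.63 for S100a9 (SE; limma adjusted p = 0.172 and 0.118). With that of the endothelial list it was −4.57 ± 1.20 for S100a8 and −3.53 ± 0.91 for S100a9 (SE; adjusted p = 0.580 for both). Neither gene passed under either covariate, and both changes were more negative. The mean log2 level of the striatal list was 2.69 to 3.24 with morphine and 4.58 to 6.91 with saline. That of the endothelial list was 2.83 to 2.99 with morphine and 3.24 to 3.65 with saline. Neither overlapped between the groups, so these fits cannot separate list level from morphine. For the counts that follow, 1.48% of all tested genes were called lower and 1.04% higher. Of 18 tested endothelial genes 4 fell (Ly6c1, Ly6a, Slco1a4 and Slc2a1), and the 19 listed genes summed to 238.3 to 270.4 FPKM with morphine and 339.4 to 372.2 with saline. Of 13 tested mural cell and fibroblast genes 3 fell (Vtn, Mgp and Col3a1), with sums of 79.2 to 115.4 FPKM with morphine and 163.6 to 311.9 with saline. Of 5 tested choroid plexus and ependymal genes 1 fell, Clic6, with sums of 9.15 to 23.6 FPKM with morphine and 14.5 to 66.7 with saline. Clic6 and Col3a1 reached at most 0.26 and 0.86 FPKM with morphine, so their saline libraries alone carried them through the filter. The same held for the striatal gene Isl1, at most 0.96 FPKM with morphine. Lrrc10b and Syndig1l reached an FPKM of 1 with morphine in replicate 2 only. All 19 striatal neuron genes were tested and 14 fell (among them Foxp2, Lrrc10b, Isl1, Drd1, Scn4b, Syndig1l, Ppp1r1b, Tac1, Adora2a, Penk, Pdyn, Rasd2 and Rgs9), with sums of 321.5 to 467.9 FPKM with morphine, against 5567.8 in saline replicate 3 and 1154.4 to 1397.9 in the remaining 3 saline samples. Of 12 tested cortical neuron genes 1 rose, Neurod1, with sums of 351.5 to 413.9 FPKM with morphine, against 107.7 in saline replicate 3 and 306.8 to 346.5 in the remaining 3. Saline replicate 3 thus had the highest striatal and lowest cortical sum and, of the saline libraries, the lowest S100a8 and S100a9. It also had the highest endothelial, mural and choroid sums (372.2, 311.9 and 66.7 FPKM). In saline replicates 1, 2 and 4 the mural sums were 276.2, 202.7 and 163.6 FPKM, in the order of S100a8 and S100a9. The endothelial and choroid sums of those libraries did not run in that order. Whether these lists relate to S100a8 and S100a9 was not tested. None of 15 microglia genes passed, Tyrobp, Aif1 and C1qc having the smallest p (adjusted p = 0.202, 0.341 and 0.419; 721.2 to 777.8 FPKM with morphine, 684.9 to 962.8 with saline). Of 14 astrocyte genes 3 fell (Ntsr2, Slc4a4 and Aldoc) and 13 had a negative change, with sums of 1608.7 to 2003.6 FPKM with morphine and 2317.4 to 3020.4 with saline. Of 15 oligodendrocyte genes none passed, Myrf, Aspa and Mbp having the smallest p (adjusted p = 0.0768, 0.107 and 0.147). Mitochondrially encoded genes took 6.09% to 7.94% of all FPKM with morphine and 9.09% to 12.6% with saline. Rescaled without them, S100a8 and S100a9 had log2 changes of −2.74 and −1.92 (adjusted p = 0.0272 and 0.0382).

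**Figure D5:**
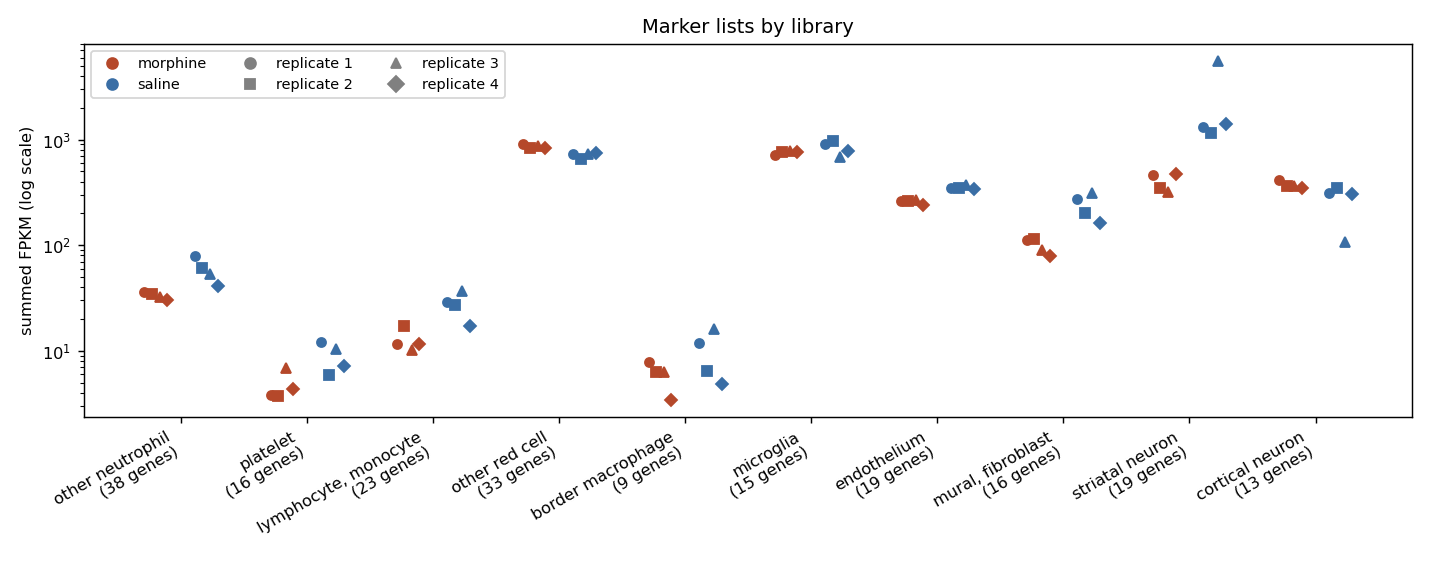
Summed FPKM (y axis, log scale) of marker lists in each library, morphine in red and saline in blue; the neutrophil and red cell lists leave out the 7 genes described above. The morphine libraries lie below the saline libraries in the neutrophil, endothelial, mural and striatal lists, and above them in the cortical and other red cell lists.

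Among the other tested genes, those whose levels ran most like the haemoglobin genes over the 8 libraries were Itm2a, a gene of the endothelial list (Pearson's r = 0.94 to the mean log2 level of the 4 globin genes), Tmem74b (0.93), Rnf34 (0.92), Arpp19 (0.92), Cmtm6 (0.91) and Emb (0.89). With group means subtracted they were Fez2 (0.95), Fbxo36 (0.94), Arpp19, Itm2a, S100a11 and Hps6 (0.93 each). None of these genes passed the morphine test. For S100a8 and S100a9 they were Slc47a1, a transporter of organic cations (0.98), Ogdhl (0.97), Tpmt (0.97), Ccdc90b (0.96), Vamp3 (0.96) and Cpne9 (0.96). Of these Slc47a1 passed the morphine test, with means of 0.588 FPKM with morphine and 3.43 FPKM with saline (log2 change −1.52, limma adjusted p = 0.0295). With group means subtracted they were Pvalb, Wwc2, Snrnp25, Mat2b, Tpmt and Sgtb, all at 0.98. The libraries share their scaling, and these values are a description with no test.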

How the data were processed

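Total RNA was extracted with Trizol, copied from an oligo-dT primer with template switching, PCR-amplified and read on an Illumina NovaSeq, per the labels' protocols. The authors deposited 1 table of FPKM values, rounded to 2 decimals, with 1 column per library per the file headers. fastp 0.18.0, Bowtie2 2.2.8, HISAT2, StringTie 1.3.1, RSEM and mm10 are named in the submitters' processing notes. Their roles, the annotation and the strand setting are not given there.

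Identifiers were matched to GENCODE M21 (22232 of 22337). Values were taken as log2(FPKM + 1) and fitted with limma 3.58.1 in R 4.3.3 (4 morphine against 4 saline libraries, empirical Bayes with trend, two-sided, Benjamini-Hochberg over the 12536 genes reaching an FPKM of 1 in 4 or more libraries, threshold 0.05). Single genes were also compared by an exact permutation test. The limma fit and the depth estimate were tested on simulated data. Alternatives were a pseudocount of 0.1, no filter, a minimum FPKM of 5, no trend, quantile normalization, rescaling without mitochondrial or haemoglobin genes, a replicate block, each library left out, and 3 covariates added after the data were seen. Named genes are the 7 members, in each list every gene that passed and up to 3 with the smallest p or highest mean, and the 6 genes most like each profile, leaving out predicted genes, clone names and pseudogenes. Slc4a1, Hba-x, Hbb-bh1, Alas1, Hmox1, Tlr4, Ager, Ly6g, Cxcr2, Ppbp, Cd3e, Camp, Ltf, Chil3, Itgam, Prtn3, Lrg1 and Il1r2 were added after their values were seen. Members and lists were chosen with earlier results of these data known. No list test was run. Some listed genes are not reported here.

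Depth was estimated from 1943 genes with 1 annotated transcript of 400 to 1500 bases: FPKM times length fell on multiples of 1 step in 77.8% to 89.6% of low values, within 0.15 of a step. In morphine replicate 2 and saline replicate 4 a smaller step (0.5 of that size) scored slightly higher and would give a depth 2 times as large; the larger step was chosen after this was seen, as was the coding transcript length of S100a8. No count test was run on these estimates. Between 0.49 and 1.11% of values were identical between any pair of libraries.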

Additional observations from a re-analysis of the deposited data

Results flagged for a closer look

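Of 26 sets of 4 values checked for a library far from the others, 2 stood out, and chance alone picks about 1 in 20. Alas2 was at 0.75 FPKM in morphine replicate 2, against 0.20 to 0.23 FPKM in the other morphine libraries. The ratio of α to β globin was 1.72 in saline replicate 2, against 1.39 to 1.44 in the other saline libraries.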

How the results depend on the processing

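The 316 genes past the threshold became 17 with no filter on low values (3204 at an unadjusted p under 0.05), 5 with a replicate block (2352), and 0 to 450 with 1 library left out. They became 0 with the haemoglobin genes as a covariate (2027), 3 with the striatal list (1234) and 0 with the endothelial list (1045), settings chosen after seeing the data. The striatal and endothelial levels did not overlap between the groups, so those fits cannot separate list level from morphine. Removing mitochondrial genes changed the split from 186 lower and 130 higher to 211 lower and 77 higher. S100a8 had a log2 change of −2.71 (adjusted p = 0.0819) with no filter, −2.26 (0.0816), −4.15 (0.172) and −4.57 (0.580) with the haemoglobin, striatal and endothelial covariates, and −3.12 to −2.29 with 1 library left out. S100a9 had −1.89 (0.0989) with no filter, −1.83 (0.0558) with quantile normalization, −1.64 (0.133), −3.37 (0.118) and −3.53 (0.580) with those covariates, and −2.27 to −1.59 with 1 library left out. A minimum FPKM of 5 left neither in the test. The change turned positive for Hbb-bs without morphine replicate 4 (0.10) and with the striatal (0.33) and endothelial (0.041) covariates, and for Hba-a1 (0.038) and Hba-a2 (0.21) with the striatal covariate. With 1 library left out, changes were −1.03 to −0.33 for Hba-a1, −0.85 to −0.10 for Hba-a2, −0.78 to 0.10 for Hbb-bs, −1.12 to −0.54 for Hbb-bt and −0.33 to −0.05 for Alas2. The causes were not tested. Libraries with the same replicate number did not deviate together (correlations 0.0522, 0.0375, −0.0592 and −0.205). With the replicate block S100a8 had −2.71 (adjusted p = 0.0234) and S100a9 −1.89 (0.0537).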
